A study of Mus musculus with 28 samples.

Results

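Import of cystine and the synthesis and use of glutathione were followed through 10 genes in 3LL (Lewis lung carcinoma) cells and in the tumors that these cells formed in mice. The genes were taken by symbol: Slc7a11 and Slc3a2 for cystine import, Gclc, Gclm and Gss for glutathione synthesis, Gsr for its reduction, and Gpx1, Gpx2, Gpx4 and Glrx for its use. A row with the symbol was found for 9 of the 10 genes, 1 row each, among 43143 rows in all. Gpx2, a glutathione peroxidase of epithelial cells, had no row and was not analysed here.

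Cells take up cystine, the oxidized dimer of cysteine, through an antiporter that exports glutamate. SLC7A11 is its transporting subunit and SLC3A2 the chaperone subunit, which other amino acid transporters share. Glutamate-cysteine ligase, made of the catalytic subunit GCLC and the modifier subunit GCLM, joins glutamate to cysteine, and glutathione synthetase (GSS) adds glycine. Glutathione peroxidases oxidize glutathione to remove peroxides, glutaredoxin (GLRX) uses it to reduce protein disulfides, and glutathione reductase (GSR) restores it with NADPH. KEAP1 marks the transcription factor NRF2 (encoded by Nfe2l2) for degradation. NRF2 that escapes KEAP1 binds antioxidant response elements and is known to activate several of these genes.

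The libraries were total RNA after removal of ribosomal RNA, and each of the 7 groups had 4 libraries. The 12 libraries of cultured cells were wild-type (WT), Keap1-KO (KEAP1-KO) and Keap1-Nrf2-DKO (DKO). The other 16 came from tumors grown after subcutaneous transplantation in young albino C57BL/6 males: Experiment A with WT beside KEAP1-KO tumors, and Experiment B with KEAP1-KO beside DKO tumors. The KEAP1-KO line was cloned from a single colony of edited WT cells, and the DKO line in the same way from KEAP1-KO cells. DKO thus also carries the Keap1 deletion. These lines are clones of edited cells, so genotype and clone cannot be told apart in cells or tumors. The study made more than 1 KEAP1-KO line, and the labels do not say which was used. In each experiment both genotypes were placed in opposite flanks of the same mice, so genotype and flank cannot be told apart. The labels do not say which tumors shared a mouse, and the main fits treat the tumors as independent. The labels do not say whether libraries of a group came from separate cultures or mice, and p-values then measure the spread between these libraries.

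Values are log2 levels, that is, log2 of the normalized count plus 4. When this step was undone, 100% of the low values examined came out as a whole number of reads within 0.1 of a read. Over the deposited rows the total was 4222365 to 7524264 reads per library. Differences were tested with limma across all rows that passed a filter on low counts, and a row was called at an adjusted p under 0.05. The identity of each row limits what it shows. The rows of Slc3a2 (ENSMUST00000205377) and Gss (ENSMUST00000175993) are protein-coding transcripts. The rows of Gclc (ENSMUST00000216315), Gclm (ENSMUST00000137540), Gsr (ENSMUST00000154745) and Gpx4 (ENSMUST00000144698) are processed transcripts without a reading frame. The rows of Slc7a11 (ENSMUST00000142932), Gpx1 (ENSMUST00000192401) and Glrx (ENSMUST00000222530) are retained-intron transcripts. Another 16 transcript rows of these genes carried no symbol and are described after the rows with one. Reads that the authors' counting gave to coding transcripts without a row were not analysed here.

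Promoters of Slc7a11 and Gclm are shown because both genes moved with KEAP1 and NRF2 and both windows hold a match to the core of the antioxidant response element. RefSeq promoters (GRCm38.p6, 250 bases before to 50 after each start) were matched by symbol for 8 of the 10 genes, all but Gclc and Gsr. The letters searched on both strands were TGACNNNGC and the variant TGAGNNNGC, which cannot match at the same place. A match to either was present in 27.8% of 32851 mouse promoters of 300 bases, and in 2 of the 8 genes here, a share near it. The matches are shown as sequence only, and binding of NRF2 was not tested. The following stretches of 49 bases upstream of the start, written 5′ to 3′ on the strand of the gene, have the match in capitals.
Slc7a11 (chr3:50443682-50443730, minus strand): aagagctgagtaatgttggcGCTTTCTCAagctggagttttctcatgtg
Gclm (chr3:122245403-122245451, plus strand): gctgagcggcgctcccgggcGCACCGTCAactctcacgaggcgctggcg
Both matches read on the strand opposite to the gene, to TGAGNNNGC in Slc7a11, from 97 to 89 bases before the start, and to TGACNNNGC in Gclm, from 134 to 126 bases before it. The promoters of Slc3a2, Gss, Gpx1, Gpx2, Gpx4 and Glrx held neither, which says only that these letters were not in these windows. Of these genes, Gss moved in the same directions as Slc7a11 and Gclm.

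The labels were first checked on the targeted genes. The level of Keap1 was 9.35 to 9.56 in WT cells and 7.30 to 7.65 in KEAP1-KO and DKO cells, and in tumors 8.78 to 8.98 in WT and 7.13 to 7.86 in the others, so its groups with and without the deletion did not overlap. The row of Nfe2l2 (ENSMUST00000152371) is a processed transcript, and it did not differ between DKO and KEAP1-KO by the test (adjusted p = 0.65 in cells and 1 in tumors). It therefore did not check the label DKO, and the genes described next are given by label. Tumors also hold cells of the host. The summed normalized counts of 4 leukocyte genes (Ptprc, Laptm5, Coro1a and Cd53) were 2.3 to 8.4 in cells, 1634.9 to 2001.4 in WT tumors, 363.2 to 437.0 and 591.4 to 776.4 in KEAP1-KO tumors of A and B, and 1095.8 to 1741.9 in DKO tumors. Each of the 4 reached at least 1 normalized count in some library of every tumor group. In bulk tumors fewer cells of a type and less RNA per cell cannot be told apart. The RNA extraction label names liver, but Albumin, the only liver gene with a row of 6 sought, was at 0 to 6.8 normalized counts.

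In cultured cells, the rows of the cystine transporter, both glutamate-cysteine ligase subunits, glutathione synthetase and glutathione reductase were higher in KEAP1-KO than in WT. All 5 were lower in DKO than in KEAP1-KO. The rises ran from 1.31-fold for Gss to 4.63-fold for Gclm, and the falls from 1.48-fold for Gss to 11.2-fold for Gclm. In tumors the same 5 rows rose from WT to KEAP1-KO in Experiment A and fell from KEAP1-KO to DKO in Experiment B. Slc3a2 went the other way in cells, and Gpx1, Gpx4 and Glrx were not called in these 4 comparisons. Folds are ratios of normalized counts plus 4 and understate the change of low rows.

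Counts were read against all rows. From WT to KEAP1-KO in cells, 5 of the 9 rows were called higher and 1 lower, while 8.13% of 29744 rows were called higher and 7.33% lower. From KEAP1-KO to DKO in cells, 1 was called higher and 5 lower, against 3.98% and 4.85% of all rows. In tumors 8 of the 9 rows passed the filter, and Gpx4 did not. From WT to KEAP1-KO tumors, 5 of these 8 were called higher and 0 lower, against 5.61% and 7.49% of 34215 rows. From KEAP1-KO to DKO tumors, 0 were called higher and 5 lower, against 4.22% and 4.64%. The median difference over the members tested was 0.83 and -0.56 in cells for the KEAP1 and the NRF2 comparison, and 0.71 and -1.23 in tumors. Over all rows the medians were 0.02, -0.03, -0.03 and 0. The members' median of 0.83 was the value of the Gpx4 row, which was not called and had 2 to 5 reads in WT cells. The KEAP1 and NRF2 comparisons in cells share the KEAP1-KO libraries, whereas those in tumors share none.

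**Figure D1:**
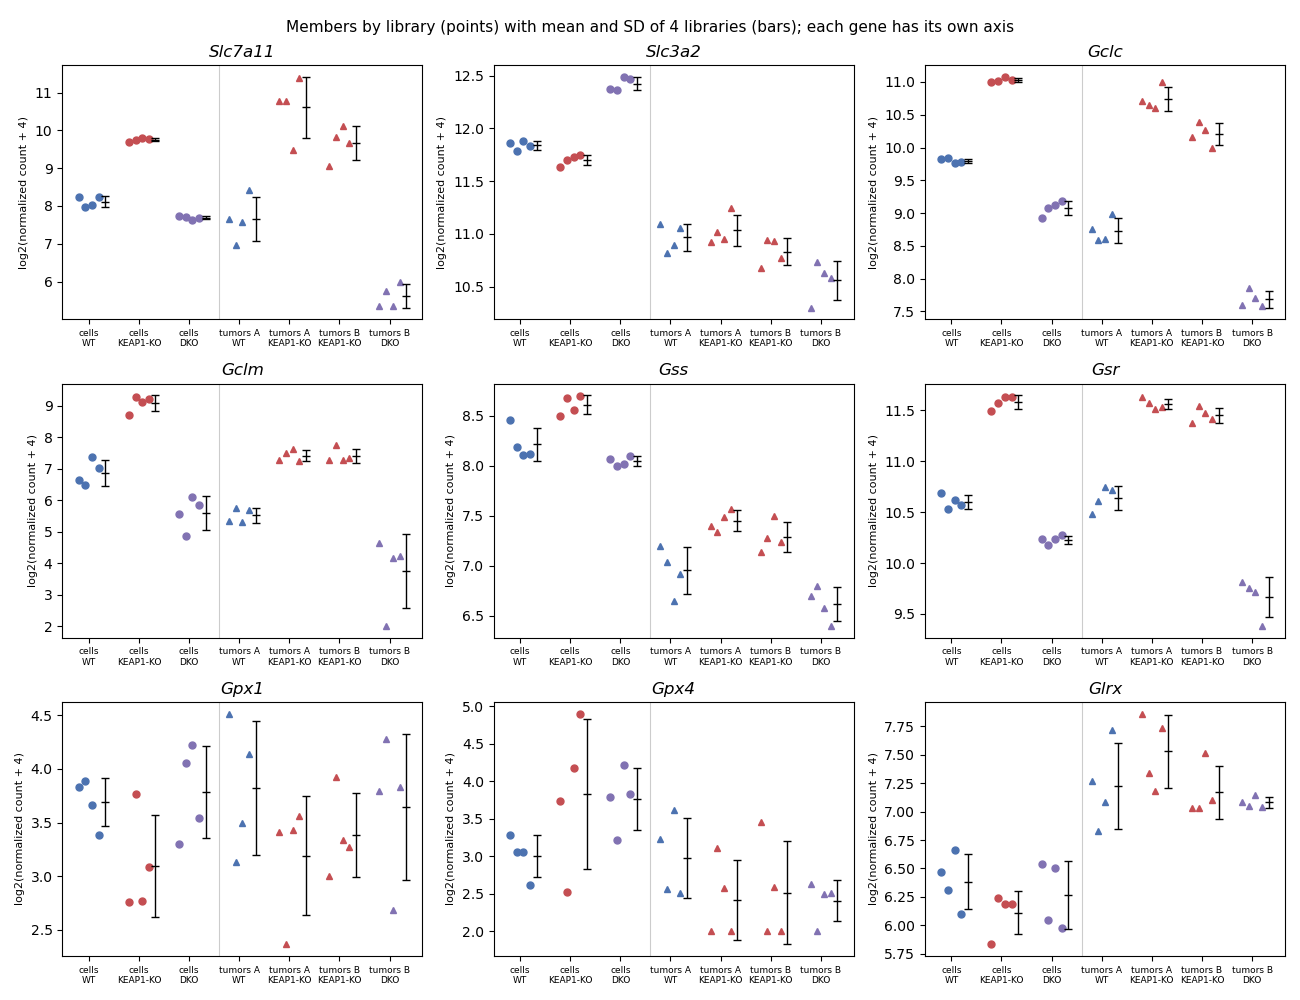
The log2 level of the 9 rows (y axis, a scale of its own for each gene) is plotted for every library in the 7 groups (x axis; circles, cells; triangles, tumors). Bars give the mean and SD of 4 libraries. Slc7a11, Gclc, Gclm, Gss and Gsr are highest in KEAP1-KO within cells and within tumors, while Slc3a2 is highest in DKO cells and Gpx1 and Gpx4 lie at the bottom of the scale.

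Slc7a11, the transporting subunit, was at 8.23, 7.96, 8.02 and 8.24 in the 4 WT cell libraries, at 9.69, 9.75, 9.79 and 9.78 in KEAP1-KO cells, and at 7.74, 7.71, 7.63 and 7.68 in DKO cells. The 3 groups did not overlap, with KEAP1-KO highest and DKO lowest. The difference was 1.64 ± 0.07 (SE) from WT to KEAP1-KO (adjusted p = 9.2e-09) and -2.06 ± 0.07 from KEAP1-KO to DKO (adjusted p = 9.6e-10). In tumors its level was 7.66, 6.98, 7.57 and 8.41 in WT, 10.79, 10.78, 9.48 and 11.39 in KEAP1-KO of A, 9.05, 9.83, 10.12 and 9.66 in KEAP1-KO of B, and 5.37, 5.74, 5.37 and 5.99 in DKO. Its libraries spread more in tumors than in cells, with an SD of 0.81 in KEAP1-KO tumors of A against 0.05 in KEAP1-KO cells, but both pairs of tumor groups were apart. Slc7a11 rose 7.75-fold from WT to KEAP1-KO tumors (2.95 ± 0.36, adjusted p = 3.1e-05) and fell 16.6-fold from KEAP1-KO to DKO tumors (-4.05 ± 0.36, adjusted p = 2.6e-06).

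Slc3a2, the chaperone subunit, did not follow its partner. Its level was 11.86, 11.79, 11.88 and 11.83 in WT cells, 11.64, 11.70, 11.73 and 11.75 in KEAP1-KO cells, and 12.38, 12.37, 12.49 and 12.47 in DKO cells. DKO cells were highest and KEAP1-KO cells lowest, with no overlap. The step from WT to KEAP1-KO was small, -0.14 ± 0.04 (adjusted p = 0.0345), and that call was lost in 6 of 8 cases when 1 library was left out, with values of -0.16 to -0.12. It was also lost with quantile normalization, with median centring, without a variance trend and with all 28 libraries in 1 fit (adjusted p = 0.0824, 0.0722, 0.326 and 0.332). From KEAP1-KO to DKO cells Slc3a2 rose 1.65-fold (0.72 ± 0.04, adjusted p = 1.1e-07). In tumors it was at 11.10, 10.82, 10.89 and 11.06 in WT, 10.92, 11.02, 10.95 and 11.24 in KEAP1-KO of A, 10.68, 10.94, 10.93 and 10.77 in KEAP1-KO of B, and 10.30, 10.73, 10.63 and 10.59 in DKO. These groups overlapped within each experiment. The differences were 0.07 ± 0.10 from WT to KEAP1-KO tumors (95% interval -0.15 to 0.28) and -0.27 ± 0.10 from KEAP1-KO to DKO tumors (adjusted p = 0.119). The second was called at the same value with all 28 libraries in 1 fit (adjusted p = 0.0315) and with a replicate block (adjusted p = 0.0494).

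Gclc, the catalytic subunit of the enzyme that limits the rate of glutathione synthesis, moved in the same directions as Slc7a11. Its level was 9.82, 9.83, 9.76 and 9.77 in WT cells, 11, 11.01, 11.08 and 11.02 in KEAP1-KO cells, and 8.92, 9.08, 9.12 and 9.18 in DKO cells. KEAP1-KO cells were 2.35-fold above WT (1.23 ± 0.05, adjusted p = 1.1e-08), and DKO cells were 3.87-fold below KEAP1-KO (-1.95 ± 0.05, adjusted p = 1.2e-10). In tumors Gclc was at 8.76, 8.59, 8.60 and 8.98 in WT, 10.71, 10.65, 10.60 and 11 in KEAP1-KO of A, 10.16, 10.38, 10.27 and 9.99 in KEAP1-KO of B, and 7.60, 7.85, 7.71 and 7.58 in DKO. No 2 tumor groups overlapped, and DKO tumors were lowest. The rise in A was 4.01-fold (2.01 ± 0.11, adjusted p = 1.2e-08) and the fall in B 5.74-fold (-2.52 ± 0.11, adjusted p = 7.5e-10).

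Gclm, the modifier subunit, changed most of the 3 synthesis genes in cells. Its level was 6.62, 6.46, 7.36 and 7.01 in WT cells, 8.71, 9.27, 9.11 and 9.21 in KEAP1-KO cells, and 5.55, 4.87, 6.11 and 5.83 in DKO cells, 3 groups without overlap. The differences were 2.21 ± 0.26 (adjusted p = 6.6e-05) and -3.48 ± 0.26 (adjusted p = 1.9e-06). In tumors Gclm was at 5.32, 5.74, 5.31 and 5.69 in WT, 7.27, 7.51, 7.61 and 7.24 in KEAP1-KO of A, 7.27, 7.74, 7.28 and 7.34 in KEAP1-KO of B, and 4.63, 2, 4.15 and 4.21 in DKO. The level of 2 in DKO tumor 2 stands for 0 reads, a count that still allows up to 3 reads by counting error, and the other DKO tumors had 17 to 19 reads. Gclm rose by 1.89 ± 0.40 in A (adjusted p = 0.00391) and changed by -3.66 ± 0.40 in B (adjusted p = 1.8e-05). With a pseudocount of 1 the rise in A was not called (1.96, adjusted p = 0.0673), and without DKO tumor 2 the difference in B was -3.08 (adjusted p = 3.8e-08).

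Gss, which adds glycine to complete glutathione, changed least of the 3 synthesis genes. Its level was 8.45, 8.19, 8.10 and 8.11 in WT cells, 8.49, 8.67, 8.56 and 8.70 in KEAP1-KO cells, and 8.07, 7.99, 8.02 and 8.10 in DKO cells. The groups were apart, although WT library 1 lay just under the lowest KEAP1-KO library. The differences were 0.39 ± 0.08 (adjusted p = 0.00528) and -0.56 ± 0.08 (adjusted p = 6.8e-04). In tumors it ran from 6.64 to 7.20 in WT, 7.33 to 7.57 in KEAP1-KO of A, 7.14 to 7.50 in KEAP1-KO of B and 6.39 to 6.80 in DKO. The rise in A was 1.41-fold (0.50 ± 0.13, adjusted p = 0.0139) and the fall in B 1.59-fold (-0.67 ± 0.13, adjusted p = 0.00244).

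Gsr, which returns oxidized glutathione to its reduced form, was at 10.69, 10.53, 10.62 and 10.57 in WT cells, 11.49, 11.57, 11.64 and 11.63 in KEAP1-KO cells, and 10.24, 10.18, 10.23 and 10.28 in DKO cells. The groups did not overlap, and the differences were 0.98 ± 0.05 (adjusted p = 2.4e-08) and -1.35 ± 0.05 (adjusted p = 1.1e-09). In tumors it ran from 10.48 to 10.75 in WT, 11.52 to 11.63 in KEAP1-KO of A, 11.37 to 11.55 in KEAP1-KO of B and 9.38 to 9.81 in DKO. Gsr rose 1.90-fold in A (0.92 ± 0.09, adjusted p = 1.9e-06) and fell 3.45-fold in B (-1.79 ± 0.09, adjusted p = 1.6e-09).

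The genes that use glutathione gave no call in these comparisons. Glrx, a thiol-disulfide oxidoreductase, ran from 6.10 to 6.67 in WT cells, 5.83 to 6.24 in KEAP1-KO cells and 5.98 to 6.54 in DKO cells, ranges that overlapped. Its difference from WT to KEAP1-KO was -0.27 in cells (95% interval -0.64 to 0.09) and 0.31 in tumors (-0.08 to 0.70). From KEAP1-KO to DKO it was 0.15 in cells (-0.21 to 0.52) and -0.09 in tumors (-0.48 to 0.30). With 1 library left out these ran from -0.37 to -0.18, 0.17 to 0.47, 0.06 to 0.25 and -0.14 to 0.03 in that order. Gpx1, the main cytosolic glutathione peroxidase, had 1 to 21 reads per library in its retained-intron row, and differences of -0.60 and 0.69 in cells and -0.63 and 0.27 in tumors, the last 2 ranging from -0.86 to -0.35 and from 0.06 to 0.59 when 1 library was left out. The row of Gpx4, the peroxidase that reduces lipid hydroperoxides in membranes, had 0 to 29 reads, with differences of 0.83 (95% interval -0.10 to 1.77) and -0.07 (-1.01 to 0.86) in cells. For Gpx4 the first of these ran from 0.48 to 1.27 when 1 library was left out, and it was called without KEAP1-KO cell library 2 (1.27, adjusted p = 0.0283). The row passed the filter in cells mostly through KEAP1-KO and DKO, where it was high, so this call supports nothing.

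**Figure D2:**
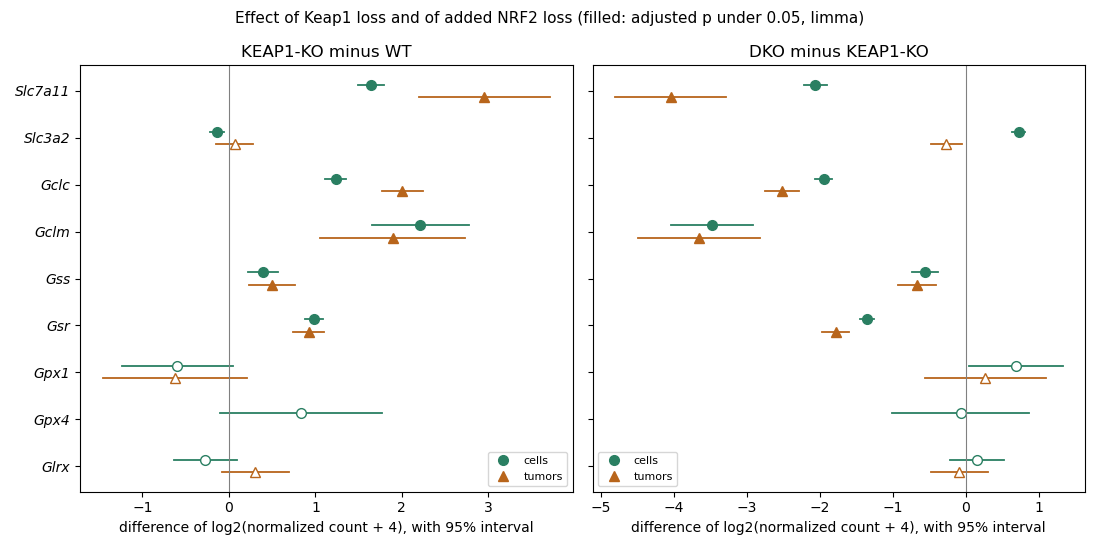
Each row's difference of log2 levels (x axis) is plotted for KEAP1-KO minus WT (left) and DKO minus KEAP1-KO (right), in cells (circles) and tumors (triangles), with its 95% interval, which is not adjusted for the number of rows. Filled symbols were called: Slc7a11, Gclc, Gclm, Gss and Gsr lie right of 0 on the left and left of 0 on the right, and Slc3a2 rises by 0.72 from KEAP1-KO to DKO in cells.

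DKO was also set against WT, to ask whether loss of both genes returned the rows to the WT level. In cells 4 rows were below WT and 1 above, against 9.2% of all rows called lower and 8.46% called higher. Slc7a11 differed by -0.42 ± 0.07 (adjusted p = 0.00101), Gclc differed by -0.72 ± 0.05, Gclm by -1.27 ± 0.26 and Gsr by -0.37 ± 0.05, while Slc3a2 was 0.58 ± 0.04 higher. Gss was not called (-0.17, 95% interval -0.35 to 0.01). With all 28 libraries in 1 fit Slc7a11 was no longer called (adjusted p = 0.416). In tumors 5 of 8 rows were lower in DKO and 0 higher, against 5.99% and 4.57%. The differences were -2.04 ± 0.36 for Slc7a11, -1.77 ± 0.40 for Gclm, -1.05 ± 0.11 for Gclc, -0.98 ± 0.09 for Gsr and -0.41 ± 0.10 for Slc3a2. The call of Slc3a2 was lost with quantile normalization (-0.25, adjusted p = 0.133) and without a variance trend (adjusted p = 0.0633), and that of Gclm with only the 2 groups compared (adjusted p = 0.0595). Gss was called with all 28 libraries in 1 fit (-0.33, adjusted p = 0.0437) and without WT tumor 3 (-0.44, adjusted p = 0.0368). WT and DKO tumors came from different experiments and flanks, which cannot be told apart from genotype here.

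KEAP1-KO tumors were grown in both experiments, on opposite flanks, and measure how far the experiments differ. By limma 0 of 8 rows were called in either direction, 2 had an unadjusted p under 0.05, and 0.152% of all rows were called higher and 0.0117% lower. Slc7a11 differed by -0.94 ± 0.36 from A to B (adjusted p = 0.527) and Gclc by -0.54 ± 0.11 (adjusted p = 0.0866), with no overlap of the Gclc groups. Gclc was called at the same difference with only rows of a mean of at least 25 normalized counts (adjusted p = 0.0463), with all rows of a gene summed (adjusted p = 0.039) and with all 28 libraries in 1 fit (adjusted p = 0.00695). Leukocyte sums also stood apart (363.2 to 437.0 in A, 591.4 to 776.4 in B), as did macrophage sums (2362.1 to 2775.1 and 3682.9 to 4239.6). Neutrophil, endothelial and fibroblast sums overlapped. The part of host cells in these differences was not tested.

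The KEAP1 and NRF2 effects were compared between tumors and cells with an interaction term over all 28 libraries. The rise of Gclc with KEAP1 loss was larger in tumors by 0.77 ± 0.13 (adjusted p = 3.4e-04), the only member called, while 1.5% of 37246 rows were called higher and 3.88% lower. Of the rows called, 27.9% were higher, and 54.8% after median centring. For Slc7a11 the rise was larger in tumors by 1.31 ± 0.41, which was not called (adjusted p = 0.0612). It was called under 6 alternatives, with values of 1.31 to 1.69. The difference with NRF2 loss was lower in tumors than in cells for 4 rows, against 1.55% of all rows called lower and 2.12% higher. For Slc7a11, Gclc and Gsr this was a deeper fall, whereas Slc3a2 rose in cells (0.72) and was not called in tumors (-0.27). Of the rows called, 57.7% were higher, and 42.7% after median centring. The differences were -1.99 ± 0.41 for Slc7a11 (adjusted p = 0.00387), -0.99 ± 0.11 for Slc3a2 (adjusted p = 4.3e-06), -0.57 ± 0.13 for Gclc (adjusted p = 0.0115) and -0.43 ± 0.10 for Gsr (adjusted p = 0.0113). Without a trend in the variance the calls of Gclc and Gsr were lost (adjusted p = 0.0503 and 0.0872).

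Levels were then compared between tumors and cultured cells of the same genotype. The median difference of all rows was 0.20 in WT, 0.16 and 0.17 in KEAP1-KO of A and B, and 0.23 in DKO, and quantile normalization moved it to -0.06, 0.01, -0.01 and -0.03, so the sign of a small difference rests on the scaling. Called rows were higher in 63.6%, 60.3%, 61.7% and 63.5% of cases in these 4 comparisons, in 47.2%, 50.6%, 50.2% and 49.4% after quantile normalization, and in 35.3%, 43.5%, 41.3% and 40.1% after median centring. Gss and Gclm were lower in tumors of every genotype and under every alternative. Gss differed by -1.26 ± 0.11 in WT, -1.16 ± 0.11 and -1.32 ± 0.11 in KEAP1-KO of A and B, and -1.43 ± 0.11 in DKO, and Gclm by -1.35 to -1.84. Slc3a2 was also lower in tumors, from -0.67 ± 0.08 in KEAP1-KO of A to -1.86 ± 0.08 in DKO, but after quantile normalization the call in KEAP1-KO of A was lost (-0.14, adjusted p = 0.2).

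Other rows depended on the genotype or the scaling. Slc7a11 was much lower in DKO tumors than in DKO cells (-2.08 ± 0.29, adjusted p = 1.3e-06), was not called in WT (-0.46 ± 0.29, but called at -0.85 after median centring) and was called higher in KEAP1-KO tumors of A (0.86 ± 0.29, adjusted p = 0.0196), a call lost after median centring (0.62) and without KEAP1-KO tumor 1, 2 or 4 of A (0.80, 0.80 and 0.59). In KEAP1-KO tumors of B it was not called (-0.09 ± 0.29, adjusted p = 0.844). Gclc was lower in tumors of all genotypes, from -0.29 ± 0.09 in KEAP1-KO of A to -1.40 ± 0.09 in DKO, but the sign of the smallest turned after quantile normalization (0.26), its call was lost without KEAP1-KO tumor 3 of A (-0.24), and the call in KEAP1-KO of B was lost after quantile normalization (-0.24, adjusted p = 0.0515). Gsr was called lower in DKO tumors (-0.56 ± 0.07, 0.08 after quantile normalization) and in no other genotype, and its sign in the others turned with the scaling, from 0.58 with quantile normalization to -0.36 with median centring in WT. Glrx was higher in tumors of all genotypes, by 0.84 ± 0.18 in WT, 1.42 ± 0.18 and 1.06 ± 0.18 in KEAP1-KO and 0.82 ± 0.18 in DKO, and after median centring the calls in WT and DKO were lost (0.45 in both). Gpx4 failed the filter within tumors and entered the fit of all libraries mostly through KEAP1-KO and DKO cells, where it was high, so its calls as lower in KEAP1-KO and DKO tumors, on 0 to 7 reads per tumor, support nothing. They were lost when all rows of the gene were summed, and in KEAP1-KO of B also without KEAP1-KO cell library 4 (-0.97). In counts, 1 of 9 rows was called higher and 4 lower in WT (24.7% and 14.1% of all rows), 2 and 5 in KEAP1-KO of A (23.9% and 15.8%), 1 and 5 in KEAP1-KO of B (23.9% and 14.9%), and 1 and 7 in DKO (27.6% and 15.9%). Without Gpx4 the rows called lower were 4 in KEAP1-KO of A, 4 in KEAP1-KO of B and 6 in DKO.

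Genes of host cells moved in tumors in the comparisons of genotype. From WT to KEAP1-KO tumors 4 of 4 leukocyte rows and 6 of 6 macrophage rows (Adgre1, Csf1r, Cd68, Mrc1, C1qa and C1qb) were called lower, with 3 of 4 neutrophil, 1 of 5 fibroblast and 0 of 4 endothelial rows. From KEAP1-KO to DKO tumors 4 of 4 leukocyte, 3 of 6 macrophage, 1 of 4 neutrophil and 2 of 5 fibroblast rows were called higher. The macrophage sums were 4531.2 to 6439.4 in WT, 2362.1 to 2775.1 and 3682.9 to 4239.6 in KEAP1-KO of A and B, and 4480.2 to 5776.8 normalized counts in DKO tumors. Fibroblast sums (Col1a1, Col1a2, Dcn, Pdgfra and Lum) were 3540.5 to 8886.1, 1203.8 to 2511.8, 1404.5 to 2036.0 and 5814.0 to 8490.1 in the same order. Muscle sums were 0.9 to 25.1 in WT and KEAP1-KO tumors and 6.8 to 260.8 in DKO tumors, and red blood cell sums were 285.4 to 1440.8 over all tumors. The part of host cells in the tumor values of the 9 genes was not tested. In cultured cells, where leukocyte sums were 2.3 to 8.4, Slc7a11, Gclc, Gclm, Gss and Gsr were called in the same directions as in tumors.

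The 16 rows without a symbol show how far a gene's transcripts moved together. Of 11 tested in cells, 6 were called higher and 0 lower from WT to KEAP1-KO, and 0 higher and 5 lower from KEAP1-KO to DKO, where 8.13% and 7.33%, and 3.98% and 4.85%, of all rows were called. Of 13 tested in tumors the counts were 5 and 0, and 0 and 7, against 5.61% and 7.49%, and 4.22% and 4.64%, of all rows. Gclm had 4 such rows, 3 of them protein coding, and all 4 rose in KEAP1-KO and fell in DKO in cells and tumors. In its coding row ENSMUST00000149983 the differences were 2.31 and -3.16 in cells and 2.21 and -3.41 in tumors. The other Slc7a11 row, a retained intron, was also called in all 4 (2.07 and -2.52 in cells, 1.35 and -2.39 in tumors). The other Gsr row was called in 2 of the 4 comparisons, and that of Gclc only from KEAP1-KO to DKO tumors. The Gclc row had 3 to 11 reads in KEAP1-KO tumors and 0 to 2 in DKO tumors and passed the filter mostly through the former, so its call supports nothing. No other row of Gss, Gpx4 or Slc3a2 was called in any of them.

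All rows of a gene were also summed. Gclm then differed by 2.30 ± 0.07 and -3.23 ± 0.07 in cells and by 2.13 ± 0.10 and -3.52 ± 0.10 in tumors, with a smaller error than its named row. Slc7a11 differed by 1.70 and -2.12 in cells and 2.85 and -3.96 in tumors. Gss differed by 0.42 and -0.60 in cells and 0.43 and -0.60 in tumors, and Gpx4 by 0.60 ± 0.44 and -0.38 ± 0.44 in cells, not called. Summing moved the difference of Gpx4 between tumors and cells from -0.02 to 0.84 in WT and from -1.42 to -0.46 in KEAP1-KO of A. This sum was added after the data had been seen.

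Other genes of glutathione metabolism were taken from a list of 59, of which 53 had a row. From WT to KEAP1-KO 10 of 37 tested rows were called higher and 6 lower in cells, and 8 and 7 of 45 in tumors, against 8.13% and 7.33% of all rows in cells and 5.61% and 7.49% in tumors. From KEAP1-KO to DKO 3 were called higher and 7 lower in cells, and 2 and 6 in tumors, against 3.98% and 4.85% in cells and 4.22% and 4.64% in tumors. Medians over the tested rows were 0.17 and -0.12 in cells and 0.03 and -0.18 in tumors, nearer to those of all rows than the members' medians. Calls ran in both directions, and 4 of the genes were called in all 4 comparisons, rising in KEAP1-KO and falling in DKO. The share of all rows called in all 4 was not counted, so these genes are given as a description only.

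Those 4 genes do different work, and the rows limit what they show: that of Esd is a retained-intron transcript, that of Abcc4 a processed transcript and that of Slc6a9 a nonsense-mediated-decay transcript, while Slc1a4 has a gene row. Esd, which completes the glutathione-dependent disposal of formaldehyde, changed most of the 4 except from WT to KEAP1-KO tumors, by 1.61 and -2.82 in cells and 2.33 and -3.08 in tumors. Abcc4, an exporter of organic anions, changed by 1.29 and -1.30 in cells and 2.56 and -2.23 in tumors. The amino acid transporter Slc1a4 changed by 0.58 and -0.76 in cells and 1.5 and -1.93 in tumors. Slc6a9, which carries glycine, changed by 0.44 and -0.54 in cells and 1.51 and -1.76 in tumors.

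**Figure D3:**
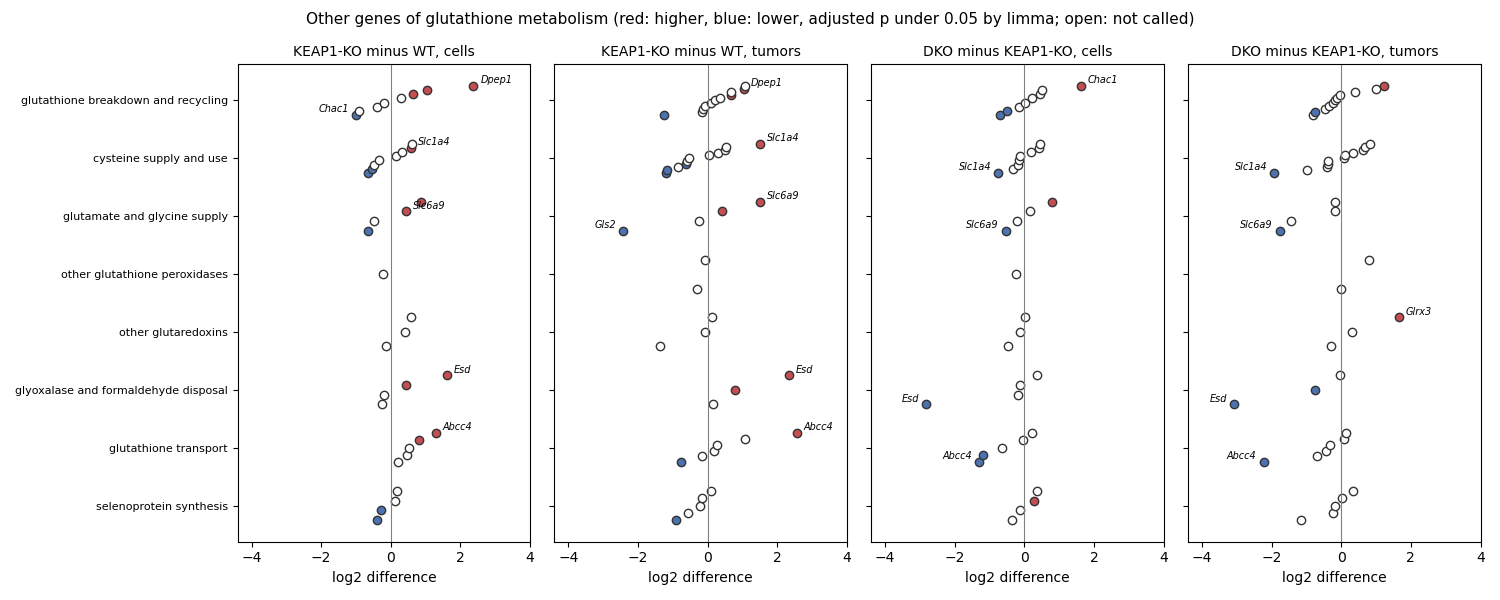
Differences of log2 levels (x axis) of the other genes of glutathione metabolism are plotted by group (y axis) for KEAP1-KO minus WT and DKO minus KEAP1-KO, in cells and tumors. Red points were called higher, blue points lower and open points not called, and labels mark Esd, Abcc4, Slc1a4, Slc6a9 and the most extreme calls: Esd reaches -3.08 and Abcc4 2.56, while the glutathione peroxidases outside the members have no call.

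Of the other genes named here, Gls2, Glrx3 and Pstk have nonsense-mediated-decay rows, Shmt2 a retained-intron row, Sephs1 a processed transcript, Dpep1 and Selenop protein-coding transcripts, and Chac1 a gene row. Of the 12 rows for breakdown and recycling of glutathione, Chac1, an enzyme that cleaves glutathione, went against the synthesis genes in cells. It was at 7.52 to 7.71 in WT, 6.52 to 6.80 in KEAP1-KO and 8.15 to 8.35 in DKO cells, which did not overlap, and differed by -1.0 (adjusted p = 2.3e-06) and 1.62 (adjusted p = 3.3e-08). In tumors its groups overlapped, from 5.64 to 7.08, and it was not called. Slc3a2 had the same order of groups in cells. Dpep1, a dipeptidase, had 1 to 3 reads in WT cells and 22 to 39 in KEAP1-KO cells. It passed the filter in cells through KEAP1-KO and DKO, where it is high, so its call there supports nothing, and in tumors its difference was 1.04 (adjusted p = 0.00493). It was not called from KEAP1-KO to DKO in either.

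In the supply of glutamate and glycine, Shmt2, the mitochondrial enzyme that makes glycine from serine, differed by -0.66 from WT to KEAP1-KO cells and by 0.79 from KEAP1-KO to DKO cells. In tumors it was not called, at -0.25 and -0.18. Gls2 had the lowest called difference in KEAP1-KO tumors (-2.43, adjusted p = 0.00885), on 0 to 20 reads against 26 to 69 in WT tumors. Glrx3 had the highest called difference from KEAP1-KO to DKO tumors (adjusted p = 0.04), with 0 reads in all 4 KEAP1-KO tumors of B and 0 to 21 in DKO, groups that overlapped, and it passed the filter in tumors mostly through WT and DKO, so this call supports nothing. Of 8 rows for selenoprotein synthesis, on which glutathione peroxidases depend, Sephs1 differed by -0.28 and 0.28 in cells, Pstk by -0.39 in KEAP1-KO cells and Selenop by -0.90 in KEAP1-KO tumors.

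Rows with a pattern like that of the leading genes were sought by Pearson correlation over the 28 libraries among 16564 rows with a symbol, as a description. All libraries share the 7 groups, so a row with the same group means scores highly. Nearest to Gclc were Txnrd1 (0.99), which encodes cytosolic thioredoxin reductase, Pgd (0.98), an NADPH-producing enzyme of the pentose phosphate pathway, and Esd (0.98). Nearest to Gclm were Esd (0.94), Pgd (0.94) and Gbe1 (0.94), the glycogen branching enzyme. Nearest to Slc7a11 were Klf5 (0.96), a transcription factor, and Gclc and Gsr (0.94 each). Among the members, Slc3a2 was nearer to Gss (0.81) than to Slc7a11 (0.12), and Glrx ran against Gss (-0.72) and Slc3a2 (-0.72).

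The order of the 7 groups differed between the genes. Gclc was highest in KEAP1-KO cells and then fell through KEAP1-KO tumors of A and B, WT cells, DKO cells and WT tumors to DKO tumors, and only DKO cells and WT tumors overlapped as neighbours. Slc7a11 was highest in KEAP1-KO tumors of A, whose range overlapped that of KEAP1-KO cells, and lowest in DKO tumors, apart from all others. Gsr had its 3 KEAP1-KO groups on top, each overlapping the next. For Gss and Slc3a2 the 3 cell groups came before the 4 tumor groups, and for Glrx the 4 tumor groups came before the 3 cell groups. The ranges of Gpx1 overlapped between all neighbours.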

How the data were processed

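RNA from 12 libraries of cultured 3LL cells and 16 tumors was sequenced by the authors, who counted transcripts with Salmon against GENCODE mouse transcripts and analysed them on the iDEP platform. The deposited table holds log2 values of normalized counts plus 4 for 43143 rows, 34021 of them transcripts and 9122 genes, and 18509 with a symbol. The study's methods speak of TPM, and how the table was scaled is not given in the sources used here. Transcript kinds came from GENCODE vM21, which holds 96.96% of the transcripts.

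Libraries were grouped by their titles. A row entered a fit where 4 or more of its libraries reached 5 normalized counts, and differences were estimated in R 4.3.3 by limma 3.58.1 (lmFit, eBayes with a trend, two-sided, Benjamini-Hochberg over all rows tested) in 3 fits: 12 cell libraries, 16 tumors, and all 28 for tumors against cells and interactions. Scripts were tested on simulated data. Reads recovered over the deposited rows came to 4222365 to 7524264 per library (median 5619787). These totals leave out transcripts without a row and are not the full depth. Intervals and limits cover counting or replicate error only.

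Named genes were the 10 members, Keap1, Nfe2l2, genes of the wider list called in all 4 genotype comparisons or extreme in one of them, and the 3 rows most correlated with Slc7a11, Gclc and Gclm. Others of the wider list (Shmt2, Sephs1, Pstk and Selenop) were chosen after their values were seen. Members and lists were chosen with earlier results of these data known. Alternatives were pseudocount, filters, scaling, variance trend, summed rows, libraries left out, a replicate block and the libraries in the fit.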

Additional observations from a re-analysis of the deposited data

Results flagged for a closer look

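In groups of 4 libraries, 63 sets of values were examined for a library far from the others, by a rule that chance meets in about 1 set in 20, and 4 were found. Gclm was at 7.738 in KEAP1-KO tumor 2 of B, above the 7.273 to 7.342 of the others. Gpx1 was at 2.366 in KEAP1-KO tumor 2 of A, below the others at 3.415 to 3.559. Glrx was at 5.832 in KEAP1-KO cell library 1, below 6.187 to 6.241, and at 7.52 in KEAP1-KO tumor 3 of B, above 7.029 to 7.102.

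In 5 cases an effect differed between tumors and cells by the interaction term in limma. The effect of KEAP1 loss on Gclc was larger in tumors by 0.773 (adjusted p = 3.4e-04). The effect of NRF2 loss in tumors minus that in cells was -1.987 for Slc7a11 (adjusted p = 0.00387), -0.992 for Slc3a2 (adjusted p = 4.3e-06; it rose by 0.72 in cells and was not called in tumors, at -0.27), -0.569 for Gclc (adjusted p = 0.0115) and -0.433 for Gsr (adjusted p = 0.0113). Host cell genes also differed between these tumor groups, and their part in the result was not tested.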

How the results depend on the processing

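Calls of Slc7a11, Gclc, Gclm, Gss and Gsr in the 4 comparisons of KEAP1 and NRF2 in cells and tumors held in 379 of 380 values under the alternatives, all in the same direction, and the exception was Gclm in tumors with a pseudocount of 1. Counts of called rows stayed within 1.5 times in 123 cases and moved in 8 among alternatives that left out no library, and in 117 and 3 among those that did. From A to B in KEAP1-KO tumors 1 row was called in place of 0 with a mean of at least 25 normalized counts, with all rows of a gene summed and with all 28 libraries in 1 fit. For the KEAP1 effect, tumors minus cells, 2 rows were called in place of 1 with a mean of at least 25, quantile normalization, median centring or the replicate block, and 1 to 2 when a library was left out (2 without KEAP1-KO cell library 2, WT tumor 4 or KEAP1-KO tumor 3 of A). Without KEAP1-KO cell library 2 the added row was Gpx4, which was high in KEAP1-KO and DKO cells, so this call supports nothing. For the NRF2 effect, tumors minus cells, 2 rows were called in place of 4 without a variance trend. Signs turned only between tumors and cells: Gclc in KEAP1-KO of A to 0.257 and Gsr in KEAP1-KO of A, KEAP1-KO of B and DKO to 0.532, 0.488 and 0.075 with quantile normalization, and Gsr in WT to -0.357 with median centring. Another 50 uncalled values changed sign and stayed uncalled, 37 of them of Gpx1 or Gpx4. Libraries with the same replicate number did not deviate together (correlations of -0.032 to 0.032, 0 of 4 pairs over 0.1 in each of 4 comparisons). This cannot tell whether tumors with the same number shared a mouse, since a weak effect of the mouse would look the same. With the replicate block Slc3a2 was called from KEAP1-KO to DKO tumors (-0.27, adjusted p = 0.0494), and Slc7a11 for the KEAP1 effect, tumors minus cells (1.31, adjusted p = 0.0496). The cause of these shifts was not tested. Low counts limit the rows of Gpx1 and Gpx4, which had 0 to 29 reads.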
